A study of Mus musculus with 6 samples.

Results

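Folding of secreted and membrane proteins in the endoplasmic reticulum (ER) was followed through 10 genes in cultured muscle cells in which *Dj1* was knocked down. The genes are chaperones, folding enzymes and regulators of the ER, and every probe that the array file lists under one of these names, upper or lower case, was taken. This gave 14 probes of the 45281 in the file, for 10 of 30854 gene names, and each probe was kept separately. Of these, 12 probes were detected on at least 3 of the 6 arrays and were tested, and each of the 10 genes has at least 1 tested probe. A probe counts as detected where its detection p, the deposited measure of how far its signal stands above that of negative control beads, is under 0.05.

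Proteins that enter the ER are held in solution by chaperones, linked by disulfide isomerases and, if glycosylated, retained by lectins until folded. When unfolded protein builds up, membrane sensors start the unfolded protein response, which raises the transcription of many of these factors and of parts of the disposal pathway. Muscle cells carry a specialised form of this compartment, the sarcoplasmic reticulum, which stores calcium.

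C2C12 is a mouse myoblast line that stops dividing and fuses into myotubes when serum is lowered. Cells received 60 nM of scramble siRNA or of an siRNA against *Dj1* (listed under its symbol Park7), went into differentiation medium 48 h later and were collected after 4 days. Each group has 3 arrays, all 6 arrays lay on the same Illumina BeadChip, and 1 siRNA was used per group, so that loss of *Dj1* and other effects of that siRNA cannot be told apart. The labels number the replicates and do not say whether they were separate cultures, so p-values measure only the spread between these samples, which may be technical. In bulk RNA, fewer cells of a type and less RNA per cell cannot be told apart either.

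Signals were background-corrected, quantile normalized and put on the log2 scale, and probes were compared with limma's moderated test, with p adjusted over all 17890 tested probes. A probe is called here where its adjusted p is under 0.05. The number of detected probes was 16985, 17399 and 18179 after scramble siRNA against 18704, 18857 and 18408 after DJ-1 siRNA. Over beads, the standard error had a median of 11.3, 8.30 and 8.66 signal units after scramble siRNA against 7.17, 6.36 and 5.88 after DJ-1 siRNA. Every scramble array was thus noisier and had fewer detected probes than any DJ-1 siRNA array, and the part of this in the calls was not tested.

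The labels were checked on the target gene and on muscle markers. The Park7 probe read 13.60, 13.37 and 13.63 with scramble siRNA against 12.48, 12.49 and 12.15 with DJ-1 siRNA, with no overlap. By limma its log2 fold change was -1.16 with a standard error of 0.14 (adjusted p = 0.00344). Of 41 probes for myotube markers, 34 were detected on all 6 arrays and 3, all of Ttn, on none, and skeletal actin Acta1 was the brightest on average. The summed signal of the list was 502700, 492400 and 493000 with scramble siRNA against 407100, 427900 and 387000 with DJ-1 siRNA. The list had 19 probes called lower and 2 called higher among 36 tested, with a median log2 fold change of -0.39. Over the 15 alternatives 10 to 22 were called lower and 0 to 4 higher, and the median ran from -0.45 to -0.22, nearest 0 with a 75th percentile shift. The fewest lower calls, 10, came without DJ-1 siRNA replicate 1 or 3. The adult fast myosin genes Myh4 (-3.72, with detection on all 3 arrays of the scramble group and on 1 of the other, and so of uncertain size) and Myh1 (-1.93 and -2.19) were called lower. Titin probes were called in both directions. Those higher were ILMN_1228221 (1.77, adjusted p = 0.00277) and ILMN_2744368 (0.76, adjusted p = 0.0309). The latter was detected on 1 scramble array, so its size is uncertain, and with arrays left out it was called only without scramble siRNA replicate 3 (adjusted p up to 0.1). Those lower were ILMN_2416670 (-0.59, adjusted p = 0.0231), ILMN_3128792 (-0.64, adjusted p = 0.018) and ILMN_1223811 (-0.76, adjusted p = 0.0256). The first of these lost its call without scramble siRNA replicate 3 or DJ-1 siRNA replicate 1 or 3 (adjusted p up to 0.0671), the next without DJ-1 siRNA replicate 3 (0.0546) and the last without DJ-1 siRNA replicate 1, 2 or 3 (up to 0.0852). Acta1 (-0.01, adjusted p = 0.977) and the early myosin Myh3 (-0.17, adjusted p = 0.29) were not called. The 14 probes for undifferentiated or cycling myoblasts, 6 of them detected on all arrays and 4 on none, with Cdk1 the brightest, summed to 4881, 5195 and 4673 after scramble siRNA and to 4552, 5209 and 4777 after DJ-1 siRNA. Pax7 was not detected. The 11 probes for fibroblasts, 3 of them detected on all arrays and 6 on none, with Dcn the brightest, summed to 7664, 7613 and 6388 against 2892, 3748 and 2197. Adipocyte, endothelial and leukocyte markers were detected on no array for 12 of 16 probes. The part of the lower muscle and Dcn signal in the results below was not tested.

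Across the 12 tested ER folding probes, 3 were called higher and 1 was called lower after *Dj1* knockdown. Over all tested probes 16.5% were called higher and 13.6% lower, and 30.1% were called in either direction, against 33.3% of these 12. The share called is thus near that of the array as a whole and is not a result about these genes as a group. There was no overlap between groups for 8 of the 12 probes, 6 of them higher and 2 lower, where the same held for 48.5% of all tested probes (26.5% higher and 22% lower). The median log2 fold change was 0.25 over the 12 probes and 0.05 over all tested probes. The former ran from 0.13 to 0.30 over 15 alternatives. It was lowest without DJ-1 siRNA replicate 3 (0.131), and lay at 0.135 with the mean of a gene's probes, which counts each gene once. The calls were HSP90B1, DNAJB9 and HERPUD1 upwards and DNAJC3 downwards, and the genes are taken below by their role.

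**Figure D1:**
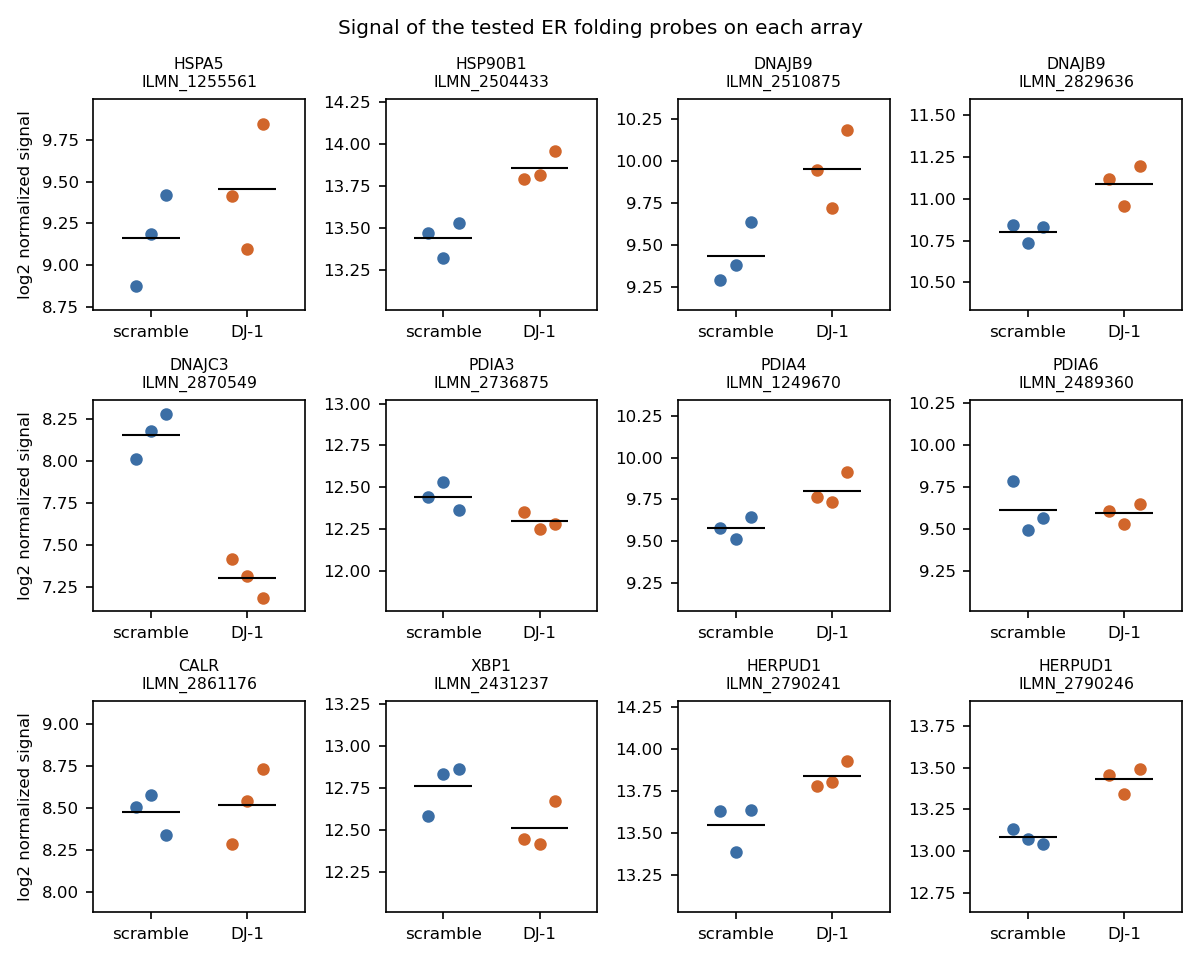
Normalized log2 signal of the 12 tested probes on each array, with scramble arrays in blue, DJ-1 siRNA arrays in orange and a line at each group mean (3 arrays per group). All panels span the same height in log2 units, so that the drop of DNAJC3 (-0.85) can be set by eye against the smaller differences of the other probes.

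HSP90B1 (GRP94) is the HSP90 chaperone of the ER lumen, which folds integrins and growth factors among other clients. Its probe (ILMN_2504433) read 13.47, 13.32 and 13.53 on the scramble arrays. It read 13.79, 13.82 and 13.96 on the DJ-1 siRNA arrays. Every knockdown array lay above every scramble array, with a gap of 0.26 between the nearest pair. In limma the log2 fold change was 0.41 with a standard error of 0.11 (adjusted p = 0.0285), a signal 33.3% higher. The call was lost without scramble siRNA replicate 2 (0.35, adjusted p = 0.0767) and without DJ-1 siRNA replicate 1 (0.45, adjusted p = 0.0752), replicate 2 (0.43, adjusted p = 0.0628) or replicate 3 (0.36, adjusted p = 0.0929), while the direction was the same in each case. It was also lost with no filter (adjusted p = 0.0655) and with the replicate block (adjusted p = 0.0501).

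HSPA5 (BiP), the HSP70 chaperone of the ER and the protein that holds the stress sensors inactive when bound to them, was not called. Its probe (ILMN_1255561) read 8.88, 9.19 and 9.42 on the scramble arrays. On the DJ-1 siRNA arrays it read 9.41, 9.10 and 9.84. The groups overlapped, since scramble replicate 3 lay above DJ-1 siRNA replicates 1 and 2. The log2 fold change was 0.29 with a 95% confidence interval from -0.24 to 0.82 (adjusted p = 0.36 from limma), so that a rise as large as that of HSP90B1 lies within the interval. It was 0.09 without DJ-1 siRNA replicate 3 (adjusted p = 0.775) and 0.47 without DJ-1 siRNA replicate 2 (adjusted p = 0.171), so its size rests on single arrays. This probe had the widest spread over beads of the 12, with a standard error of 5.08 to 9.2% of its signal.

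DNAJB9 (ERdj4) and DNAJC3 (p58IPK) are J-domain proteins of the ER lumen that work with HSPA5, and they moved in opposite directions. The dimmer DNAJB9 probe (ILMN_2510875) read 9.29, 9.38 and 9.64 with scramble siRNA against 9.95, 9.72 and 10.19 with DJ-1 siRNA. The brighter one (ILMN_2829636) read 10.85, 10.74 and 10.83 against 11.12, 10.96 and 11.19. On both probes all knockdown arrays lay above all scramble arrays, by gaps of 0.08 and 0.11. The log2 fold changes were 0.52 (standard error 0.16, adjusted p = 0.047 from limma) and 0.29 (standard error 0.10, adjusted p = 0.0821), so that only the first was called. That call was lost without scramble siRNA replicate 1 (0.45, adjusted p = 0.1) or 2 (0.49, adjusted p = 0.113) and without DJ-1 siRNA replicate 1 (0.52, adjusted p = 0.122) or 3 (0.40, adjusted p = 0.134). It was also lost with no filter (adjusted p = 0.102) and by Student's t-test (adjusted p = 0.107). The second probe was called in 6 of 15 alternatives (adjusted p from 0.0107 to 0.217), which are the 3 other combinations of background correction and scaling, the stricter filter, the trend of the prior variance and the mean of both probes.

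The DNAJC3 probe (ILMN_2870549) read 8.01, 8.18 and 8.28 with scramble siRNA against 7.41, 7.32 and 7.19 with DJ-1 siRNA. The groups were 0.60 apart at their nearest, the widest gap among the 12 probes. DNAJC3 also binds the kinase PERK and restrains it. In limma its log2 fold change was -0.85 with a standard error of 0.12 (adjusted p = 0.00455), so 55.4% of the signal remained. This was the only one of the 4 calls that held under all 15 alternatives, with values from -0.93 to -0.52. The values nearest 0 were those without background correction. This probe was the dimmest of the 12, although detected on every array, so the size of its fall is less certain than its direction. A second DNAJC3 probe (ILMN_2775386) was detected on no array and gives no value for the comparison.

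The protein disulfide isomerases PDIA3, PDIA4 and PDIA6 form and rearrange disulfide bonds, and PDIA3 (ERp57) does so on glycoproteins held by calreticulin or calnexin. None of the 3 was called by limma. PDIA4 (ERp72, ILMN_1249670) read 9.58, 9.51 and 9.65 with scramble siRNA against 9.76, 9.73 and 9.91 with DJ-1 siRNA. PDIA3 (ILMN_2736875) read 12.44, 12.53 and 12.36 against 12.35, 12.25 and 12.28. PDIA6 (P5, ILMN_2489360) read 9.78, 9.49 and 9.56 against 9.61, 9.53 and 9.65. The knockdown arrays were higher without overlap for PDIA4, lower without overlap but by a gap of only 0.01 for PDIA3, and interleaved with the scramble arrays for PDIA6. The log2 fold changes were 0.22 (95% confidence interval -0.02 to 0.46) for PDIA4, -0.15 (-0.38 to 0.08) for PDIA3 and -0.02 (-0.29 to 0.25) for PDIA6, with adjusted p of 0.138, 0.28 and 0.912 from limma. The value for PDIA3 shrank to -0.01 after background correction with a 75th percentile shift (adjusted p = 0.941), and the sign for PDIA6 differed under 3 of 15 alternatives.

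CALR (calreticulin) is the soluble lectin and calcium store of the ER lumen. Its detected probe (ILMN_2861176) read 8.51, 8.58 and 8.34 with scramble siRNA against 8.28, 8.54 and 8.73 with DJ-1 siRNA. The groups overlapped fully, and the knockdown group held both the lowest and the highest reading. The log2 fold change was 0.05 (95% confidence interval -0.29 to 0.39, adjusted p = 0.833 from limma), with the other sign under 2 of 15 alternatives. The other CALR probe (ILMN_1233820) was detected on no array.

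XBP1 is the transcription factor made active by splicing of its RNA by the sensor IRE1, and HERPUD1 (Herp) is a membrane protein that joins the degradation complex of the ER. The XBP1 probe (ILMN_2431237) read 12.59, 12.84 and 12.86 with scramble siRNA against 12.45, 12.42 and 12.67 with DJ-1 siRNA. Knockdown replicate 3 lay above scramble replicate 1, and the other arrays were apart. The log2 fold change was -0.25 (95% confidence interval -0.55 to 0.05, adjusted p = 0.176 from limma). It was called lower in 1 of 15 alternatives, with a trend of the prior variance (adjusted p = 0.0386). The value shrank to -0.10 after background correction with a 75th percentile shift (adjusted p = 0.628) and ran to -0.34 without scramble siRNA replicate 1 (adjusted p = 0.0859). The file gives no probe sequence, so the spliced and unspliced forms of XBP1 cannot be told apart with these values.

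HERPUD1 has 2 bright probes. The first (ILMN_2790246) read 13.14, 13.07 and 13.04 with scramble siRNA against 13.46, 13.34 and 13.49 with DJ-1 siRNA. The second (ILMN_2790241) read 13.63, 13.38 and 13.64 against 13.78, 13.80 and 13.93. On both probes all knockdown arrays lay above all scramble arrays. In limma the first had a log2 fold change of 0.35 with a standard error of 0.09 (adjusted p = 0.0346) and the second 0.29 with 0.11 (adjusted p = 0.0974). The second was not called, and was called in 5 of 15 alternatives (adjusted p from 0.00659 to 0.244). Its value ran from 0.205 without scramble siRNA replicate 2 to 0.469 after background correction with a 75th percentile shift. The call of the first was lost without scramble siRNA replicate 2 (0.34, adjusted p = 0.0812) or 3 (0.33, adjusted p = 0.0864) and without DJ-1 siRNA replicate 1 (0.34, adjusted p = 0.119), 2 (0.39, adjusted p = 0.0524) or 3 (0.32, adjusted p = 0.105). It was also lost with no filter (adjusted p = 0.0802) and with the replicate block (adjusted p = 0.0735).

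**Figure D2:**
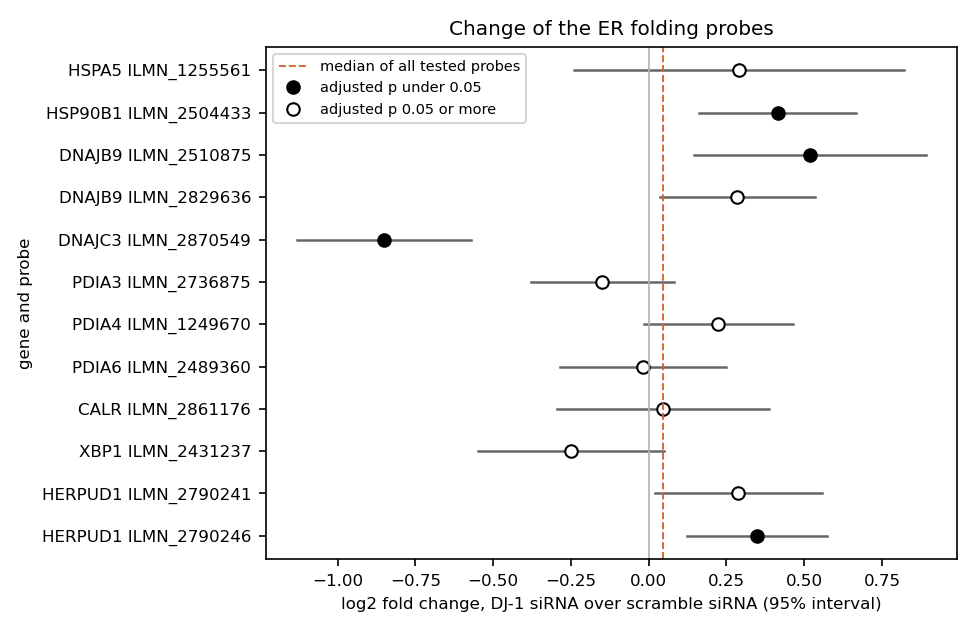
Log2 fold change (DJ-1 siRNA over scramble siRNA) of the 12 tested probes with its 95% confidence interval, filled where the adjusted p is under 0.05, and a dashed line at the median of all tested probes (0.05). The intervals of the 3 called rises lie above 0, that of DNAJC3 lies below it, and 6 of the other 8 include 0.

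**Figure D3:**
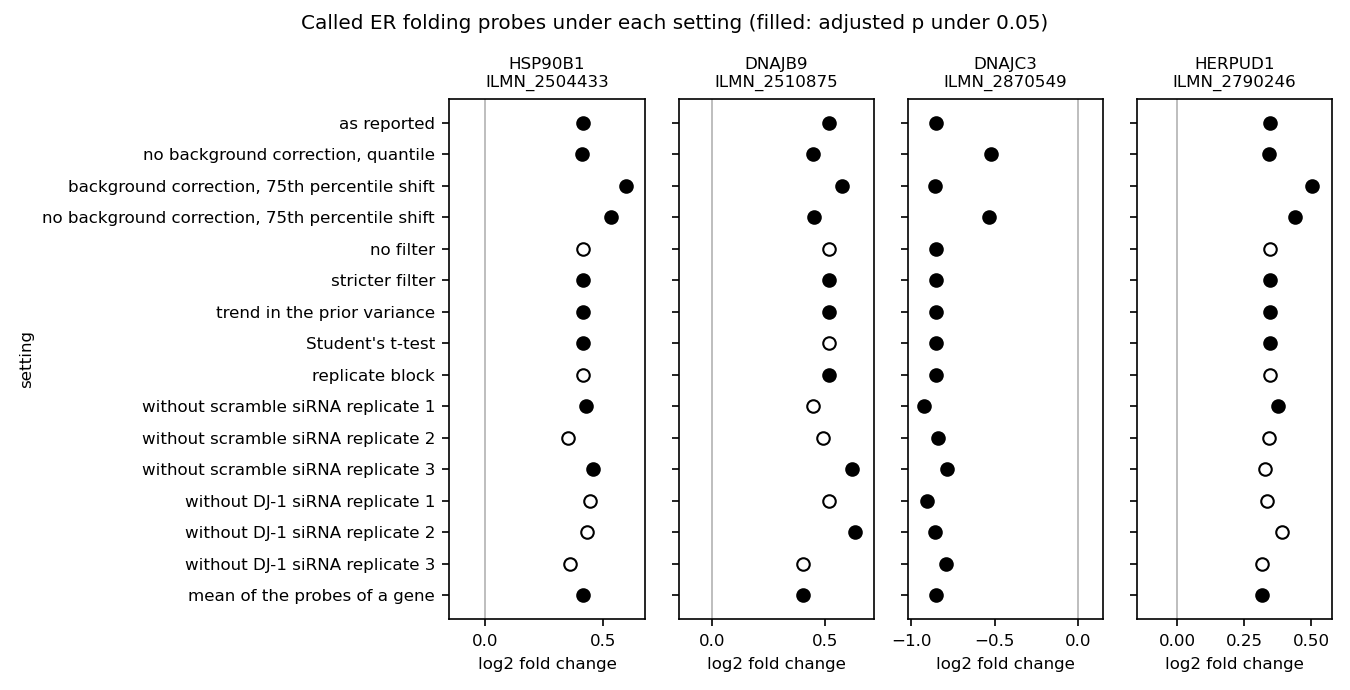
Log2 fold change of the 4 called probes as reported and under each of 15 alternatives, filled where the adjusted p is under 0.05. Every value of HSP90B1, DNAJB9 and HERPUD1 lies above 0, with open points where the call is lost, and DNAJC3 is filled throughout.

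The stretches before the start of these genes were searched for known stress elements, since textbook accounts place such elements there. All 10 genes have an entry in the RefSeq promoter table (GRCm38.p6). The 250 bases before each start were searched on both strands for the ER stress element ERSE (CCAAT, then 9 bases, then CCACG), for ERSE-II (ATTGG, then 1 base, then CCACG), for the unfolded protein response element UPRE (TGACGTGG) and for the core of the amino acid response element (TTGCATCA). ERSE was found in 37 of 32851 promoters (0.113%) and in 5 of the 10 genes, which are HSPA5, HSP90B1, PDIA6, DNAJC3 and CALR. Since such elements are known from genes of this kind, a high share was likely in advance, and the contrast was not tested. ERSE-II was found in 10 promoters (0.0304%), HERPUD1 among them. The amino acid response core was found in 260 promoters (0.791%), again with HERPUD1, and UPRE in 185 (0.563%) and in none of the 10 genes. ERSE and ERSE-II share the letters CCACG, and no match overlapped another.

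The matched stretches are shown for the 4 genes that carry a match and either were called or, as HSPA5, stand for the classical target of the response. Each runs 5′ to 3′ on the strand of the gene with the matched letters in capitals and the spacer in lower case. They lie in GRCm38.p6 at chr2:34772005-34772063 (HSPA5, forward strand), chr10:86705513-86705676 (HSP90B1, reverse strand), chr14:118937807-118937865 (DNAJC3, forward strand) and chr8:94386297-94386407 (HERPUD1, forward strand).
HSPA5: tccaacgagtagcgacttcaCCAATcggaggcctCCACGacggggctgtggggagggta
HSP90B1: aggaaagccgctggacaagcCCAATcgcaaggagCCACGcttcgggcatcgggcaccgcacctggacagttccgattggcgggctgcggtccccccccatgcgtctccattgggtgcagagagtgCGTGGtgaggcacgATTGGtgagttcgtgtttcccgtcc
DNAJC3: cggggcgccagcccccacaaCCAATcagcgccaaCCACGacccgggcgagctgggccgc
HERPUD1: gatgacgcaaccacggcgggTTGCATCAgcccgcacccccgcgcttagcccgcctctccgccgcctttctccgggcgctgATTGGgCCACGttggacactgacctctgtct
The ERSE of HSPA5 begins 65 bases and that of DNAJC3 105 bases before the start. HSP90B1 carries 2, the first at 212 bases and the other, on the opposite strand, at 107 bases. In HERPUD1 the amino acid response core begins at 112 bases and ERSE-II at 52 bases. The 6 genes with a match include 2 with a probe called higher (HSP90B1 and HERPUD1), 1 called lower (DNAJC3) and 3 not called (HSPA5, PDIA6 and CALR). DNAJB9, which was called higher on 1 probe, has no match in this window, and neither do PDIA3, PDIA4 and XBP1. A match describes letters only and does not show that a factor binds there.

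**Figure D4:**
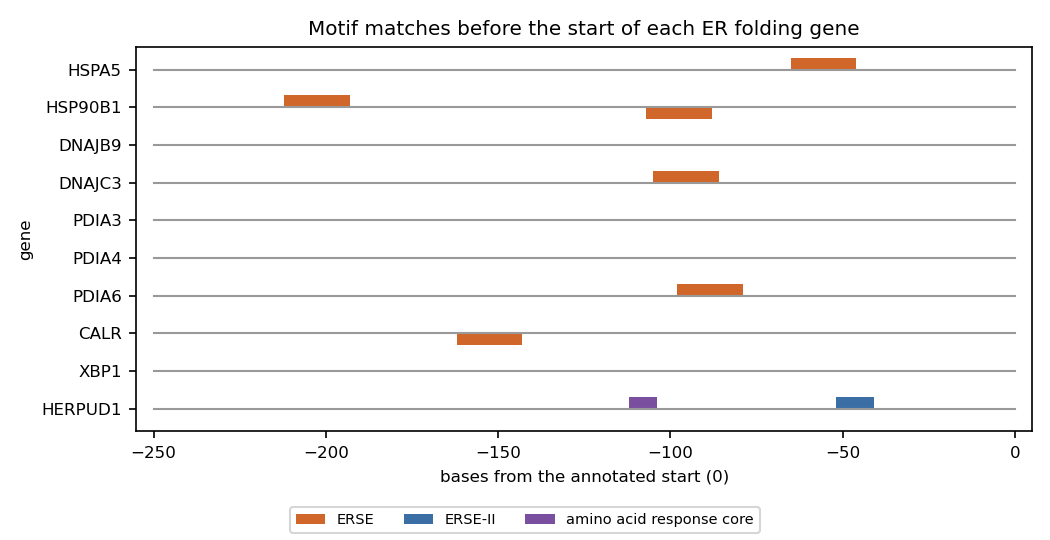
Motif matches in the 250 bases before the annotated start of each of the 10 genes, with the distance from the start in bases on the horizontal axis. Bars above a line are on the strand of the gene and bars below it on the opposite strand. The matches lie between 212 and 42 bases before the start.

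The sensors and the other branches of the unfolded protein response were described next to the members. Of the sensors, IRE1 (Ern1) was called higher on its bright probe (ILMN_2502860), which read 9.22, 8.85 and 9.12 with scramble siRNA against 9.51, 9.49 and 9.41 with DJ-1 siRNA. Its log2 fold change was 0.41 (adjusted p = 0.0457 from limma), and with each array left out in turn the call held only without scramble siRNA replicate 1 (0.30 to 0.49, adjusted p up to 0.137). A dim ERN1 probe (ILMN_1247556) was at -0.02 (adjusted p = 0.958) and another ERN1 probe was detected on no array. Neither probe of ATF6 was detected on any array, and of the 2 EIF2AK3 (PERK) probes 1 was detected on 1 array and the other on none, so the arrays give no comparison for these sensors. Their relatives Creb3l2 (1.45, adjusted p = 0.0218) and Atf6b (-0.63, adjusted p = 0.0104) were called, the former not without DJ-1 siRNA replicate 1 or 3 (1.08 to 1.66 over the fits with 1 array left out, adjusted p up to 0.0799). The other tested Creb3l2 probe (ILMN_2599400) was not called (adjusted p = 0.0644 from limma). It was detected on 0 arrays of the scramble group and 3 of the other. In all, 2 probes of this list were called higher and 1 lower among 12 tested, with a median of 0.11 that turned to -0.12 with the stricter filter and to -0.03 without DJ-1 siRNA replicate 3. By limma 0 were called higher without DJ-1 siRNA replicate 1 or 3 (3 and 2 at an unadjusted p under 0.05), and 0 by Student's t-test.

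In the branch below PERK, RNA of the transcription factor ATF4 was lower, while neither the activity of the branch nor ATF4 protein was measured. Its bright probe (ILMN_2642681) read 13.36, 13.28 and 13.35 with scramble siRNA against 12.87, 12.93 and 12.75 with DJ-1 siRNA, and its other probe (ILMN_1223734) read 9.29, 9.68 and 9.63 against 8.63, 8.81 and 8.94. The knockdown arrays lay below the scramble arrays on both. The log2 fold changes of Atf4 were -0.48 (adjusted p = 0.0137) and -0.74 (adjusted p = 0.0125 from limma), and both calls were lost without DJ-1 siRNA replicate 1, the former also without replicate 3 (adjusted p up to 0.0538 and 0.0512). The glutathione-degrading enzyme Chac1 (-1.08, adjusted p = 0.0031) and the factor Atf5 (-0.68, adjusted p = 0.00721), which are known ATF4 targets, were called lower in all fits with 1 array left out.

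The ATF4 target DDIT3 (CHOP) is a factor that promotes cell death under lasting stress, and it was not called. Its probes ILMN_2927373 and ILMN_2652909 read 9.48, 9.51 and 9.62 and 9.68, 10.00 and 9.89 on the scramble arrays. On the DJ-1 siRNA arrays they read 10.14, 9.77 and 10.72 and 10.40, 10.15 and 10.93. The knockdown arrays lay above the scramble arrays on both, and replicate 3 was the highest. Neither probe of Ddit3 was called, at 0.67 (adjusted p = 0.068) and 0.64 (adjusted p = 0.0595 from limma). With each array left out, the sizes ran from 0.42 to 0.89 and from 0.42 to 0.81. The pseudokinase gene Trib3 was not called on any of 3 probes, at 0.50, -0.32 and -0.47 (adjusted p of 0.389, 0.229 and 0.117 from limma). With each array left out, these sizes ran from 0.06 to 0.83, from -0.46 to -0.18 and from -0.65 to -0.33. Of 15 tested probes of PERK and ATF4 effectors, 4 were called lower and 0 higher by limma, with 2 higher at an unadjusted p under 0.05 and 0 by Student's t-test, and a median of -0.12. Over the 15 alternatives 0 to 3 were called higher and 2 to 5 lower, and the median ran from -0.20 to -0.03. The higher calls came to 2, 1 and 3 with the other background corrections and scalings and to 3 with the trend of the prior variance. They came to 2 with the stricter filter, to 2 without DJ-1 siRNA replicate 2 and to 0 in the remaining alternatives. The Ddit3 probes were among those called in some alternatives.

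Other folding factors of the ER showed calls in both directions. Among 32 probes of other chaperones and co-chaperones, 3 were called higher and 6 lower, with a median of -0.08 that turned to 0.01 after background correction with a 75th percentile shift, where 3 were called higher and 2 lower. With each array left out, and so fewer arrays compared, 2 to 3 were called higher and 1 to 3 lower, while 3 to 4 were higher and 6 to 8 lower at an unadjusted p under 0.05. The nucleotide exchange factor of HSPA5, Sil1 (0.63, adjusted p = 0.00721), and the J-domain protein DNAJC1 (1.03, adjusted p = 0.0117) were called higher, as was Creld1 (0.54, adjusted p = 0.0165). The prolyl isomerase Fkbp14 (-0.60, adjusted p = 0.0114), Cnpy2 (-0.54, adjusted p = 0.014) and the cyclophilin Ppic (-0.42, adjusted p = 0.0253) were called lower. Sil1, DNAJC1 and Fkbp14 were called with each array left out, Cnpy2 in 5, Creld1 in 4 and Ppic in 2 of 6 such fits. Cnpy2 lost its call without DJ-1 siRNA replicate 1 (adjusted p up to 0.0551), Creld1 without DJ-1 siRNA replicate 1 or 3 (up to 0.0672), and Ppic kept it only without scramble siRNA replicate 1 or DJ-1 siRNA replicate 2 (up to 0.0921).

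Among 23 probes of other disulfide isomerases and oxidases, 1 was called higher and 0 lower by limma, with 2 lower at an unadjusted p under 0.05 and 0 by Student's t-test. The call was the thiol oxidase gene Ero1b (1.22, adjusted p = 0.00797), with detection on 1 array of the scramble group and all 3 of the knockdown group, and a rise of uncertain size for that reason. The list thus had 4.35% of its probes called, against 33.3% of the 12 ER folding probes and 30.1% of the array. The difference was not tested, and without background correction and with a 75th percentile shift 5 were called higher and 1 lower. The median of the list was 0.07 (0.00 to 0.14 over the 15 alternatives). In the lectin cycle, 4 of 16 probes were called higher and 1 lower, with a median of 0.28. The median was 0.14 without background correction and 0.09 with no filter, and 2 to 6 probes were called higher over the 15 alternatives. The mannosidase-like Edem2, which marks glycoproteins for disposal, rose on its 2 leading probes by 0.75 (adjusted p = 0.00885) and 0.74 (adjusted p = 0.00589), with each array left out as well. The glucosidase Ganab (0.66, adjusted p = 0.0312) and the cargo lectin Lman2 (-0.39, adjusted p = 0.0196) kept their calls only without scramble siRNA replicate 3 and only without scramble siRNA replicate 1 or 3 (adjusted p up to 0.0847 and 0.0659). The other 2 Ganab probes were not called, at 0.34 (ILMN_2940440, adjusted p = 0.115) and 0.14 (ILMN_1237089, adjusted p = 0.296). The remaining call was another Edem2 probe, and the last Edem2 probe was not called (ILMN_1237028 at 0.32, adjusted p = 0.137).

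For degradation from the ER, the pathway that HERPUD1 serves, 7 of 36 probes were called higher and 2 lower, with a median of 0.02 whose sign differed in some of the 15 alternatives (-0.01 to 0.06). Over these 3 to 9 were called higher and 0 to 5 lower. The higher calls include a Derl2 probe (ILMN_1241323) detected on 0 arrays of the scramble group and 3 of the other, for which only a rise from background can be stated. With arrays left out this call held only without replicate 2 of either group (adjusted p up to 0.119), and the other 2 Derl2 probes were not called (ILMN_2685125 at -0.18 and ILMN_2685124 at -0.27). Its relative Herpud2 was called higher on 3 probes (0.91, 0.87 and 0.86, adjusted p of 0.0232, 0.00353 and 0.0107), 2 of them with each array left out and the first not without DJ-1 siRNA replicate 1 or 3 (adjusted p up to 0.0822). The other Herpud2 probe was not called (ILMN_2751158 at 0.57, adjusted p = 0.145). Selenos (-0.40, adjusted p = 0.0334) and Ufd1 (-0.57, adjusted p = 0.0352), which join the step that pulls proteins into the cytosol, were called lower. Selenos kept this only without scramble siRNA replicate 1 or DJ-1 siRNA replicate 3 (adjusted p up to 0.113) and Ufd1 only without scramble siRNA replicate 1 (up to 0.103). The other Selenos probe was not called (ILMN_2712557 at -0.37, adjusted p = 0.0693).

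At the entry of the ER, 5 of 33 probes of the translocon and of signal peptide processing were called higher and 3 lower, with a median of 0.02 that lay at 0.11 after background correction with a 75th percentile shift and at -0.02 with no filter. Over the 15 alternatives 2 to 9 were called higher and 0 to 4 lower. Of the probes for the signal recognition particle and its receptor, 3 were called higher, 1 for Srprb at 0.92 (ILMN_2744512, adjusted p = 0.00541), Srp68 at 0.73 (adjusted p = 0.0097) and Srp72 at 0.68 (adjusted p = 0.015). The probes of Srp9, Srp14, Srp19, Srp54a and Srpr were not called, nor were the other Srprb probes, at 0.02 (ILMN_2726705, adjusted p = 0.971) and -0.26 (ILMN_1244768, adjusted p = 0.0812). Srp72 was not called without DJ-1 siRNA replicate 1 or 3 (adjusted p up to 0.058). The translocon-associated Ssr1 (-0.45) and Ssr2 (-0.38) and the signal peptidase subunit Spcs1 (-0.36) were lower, with adjusted p of 0.0286, 0.0292 and 0.0271. Ssr3 (0.26, adjusted p = 0.163) and the Ssr4 probes (-0.002 and -0.06, adjusted p of 0.992 and 0.662 from limma) were not called. A second Spcs1 probe (ILMN_2998020) was not called (-0.19, adjusted p = 0.265), and another signal peptidase subunit, Spcs3, was called higher on both of its probes (0.61 and 0.34, adjusted p of 0.0153 and 0.0421). The first of these lost its call without DJ-1 siRNA replicate 1 or 3 (adjusted p up to 0.0582), and the second kept it only without scramble siRNA replicate 1 (up to 0.132). With 1 array left out, Ssr1 kept its call only with DJ-1 siRNA replicate 3 missing, and Ssr2 and Spcs1 only without scramble siRNA replicate 1 (adjusted p up to 0.106, 0.106 and 0.0954).

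Other calcium-binding proteins, to which CALR is functionally close, included 3 probes called higher and 1 lower among 12 tested. Their median was 0.09 (0.06 to 0.20 over the 15 alternatives). Sdf4 rose by 1.12 (adjusted p = 0.00305) and Casq1, the calcium store of the adult sarcoplasmic reticulum, fell by 1.09 on the log2 scale (adjusted p = 0.00714), both with each array left out. Calu (0.46, adjusted p = 0.0161) lost its call without DJ-1 siRNA replicate 1 (adjusted p up to 0.0712), and Rcn3 (0.41, adjusted p = 0.0468) kept its call only with DJ-1 siRNA replicate 1 left out (adjusted p up to 0.134). Of the 4 Calu probes tested, the other 3 were not called.

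Chaperones of other compartments were set beside those of the ER. Of 34 probes of cytosolic chaperones, 9 were called lower and 0 higher by limma, with 3 higher at an unadjusted p under 0.05 and 1 by Student's t-test. Over the 15 alternatives 0 to 3 were called higher and 6 to 13 lower, with 3 higher and 12 lower without background correction and 2 higher and 8 lower after background correction with a 75th percentile shift. Their median was -0.15, and it lay at -0.07 with that shift. The HSP40 gene Dnajb1 (-0.70, adjusted p = 0.00482) and both Cct3 probes (-0.67 and -0.64, adjusted p of 0.0134 and 0.00885), a subunit of the chaperonin that folds actin and tubulin, were called lower with each array left out. Of 15 probes of mitochondrial chaperones, 2 were called higher and 1 lower, with a median of -0.02 that turned to 0.10 after background correction with that shift and ran from -0.08 to 0.10 over the 15 alternatives, with 1 to 5 called higher and 0 to 3 lower. Both higher probes were Hscb (0.96 and 0.89, adjusted p of 0.00703 and 0.0166), which serves iron-sulfur cluster transfer, the latter not without scramble siRNA replicate 2 or DJ-1 siRNA replicate 1 or 3 (adjusted p up to 0.063). The lower probe, Hspd1 (-0.34, adjusted p = 0.0478), was called in 0 of 6 fits with 1 array left out (adjusted p up to 0.136), and the other Hspd1 probe was not called (ILMN_2713841 at -0.29, adjusted p = 0.0771). Whether the lists differ from each other was not tested.

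**Figure D5:**
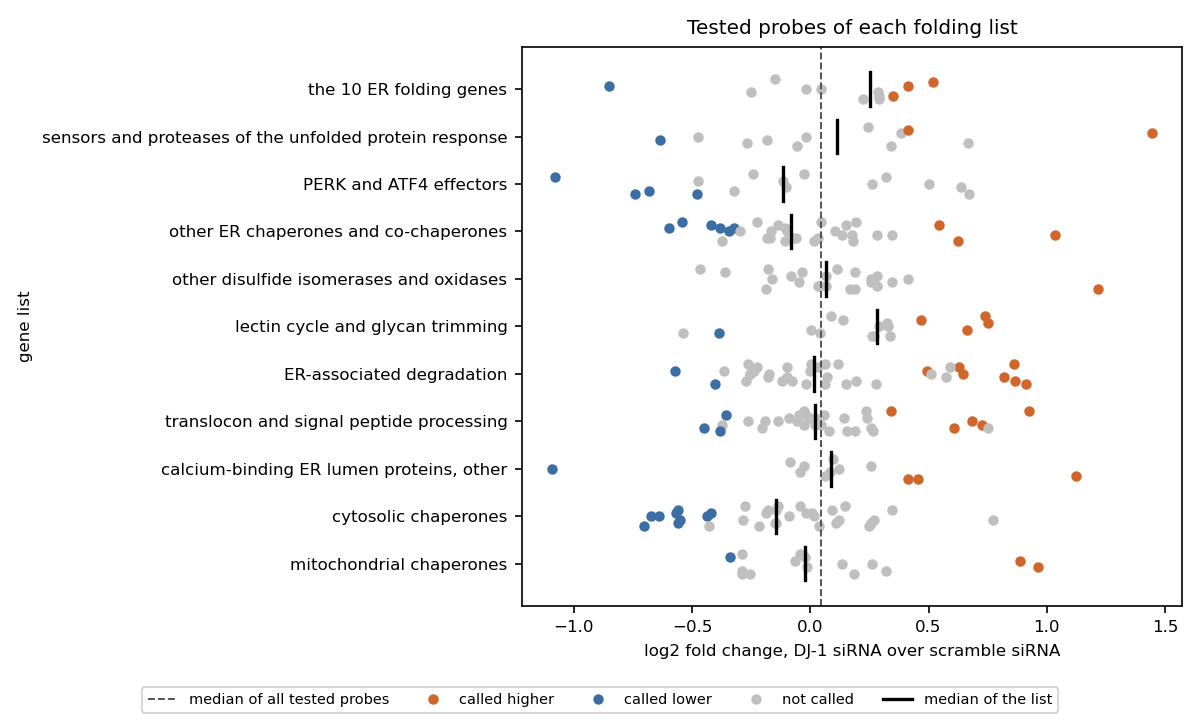
Log2 fold change of every tested probe in the 10 ER folding genes and in the 10 lists set beside them, in orange where called higher, blue where called lower and grey where not called, with a bar at each list's median and a dashed line at the median of all tested probes (0.05). The medians as fitted lie between -0.15 for cytosolic chaperones and 0.28 for the lectin cycle, the latter at 0.14 without background correction.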

How the data were processed

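Total RNA of 3 scramble and 3 DJ-1 siRNA samples was hybridized to an Illumina mouse BeadChip. The authors deposited, for 45281 probes, the mean signal intensity of each array, with its standard error over beads and the number of beads, neither normalized nor background-subtracted. They also deposited a detection p-value per probe and array. With limma 3.58.1 in R 4.3.3, intensities were corrected by normexp (offset 16, control levels derived from the detection p-values), quantile normalized and put on the log2 scale. The 17890 probes with detection p under 0.05 on at least 3 arrays entered lmFit and eBayes, with two-sided p adjusted after Benjamini and Hochberg across all of them (threshold 0.05). Intervals are 95% confidence intervals. The number of arrays limits the precision.

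Gene names follow the file, updated through Entrez number or accession where RefSeq (GRCm38.p6) matched, which held for 32345 probes. The members and lists were chosen with earlier results of these data known. Named genes are all member probes, Park7, 6 stress genes (Ern1, Eif2ak3, Atf6, Atf4, Ddit3 and Trib3) and, from each other list, up to 3 called probes with the largest rise and 3 with the largest fall with no overlap between groups and detection throughout at least 1 group. Some probes are named outside this rule: the brightest or an undetected marker of a list, and Myh3. Further probes are given beside those that the rule names. They belong to titin, Creb3l2, Edem2, Ganab, Derl2, Herpud2, Selenos, Hspd1, Calu, the Ssr genes, the signal recognition particle and signal peptidase. Markers of undifferentiated myoblasts had 1 probe called lower (Ccnb1, -0.57, not without DJ-1 siRNA replicate 1 or 3, with adjusted p up to 0.0585) and 0 higher by limma among 8 tested (3 higher at an unadjusted p under 0.05, 1 by Student's t-test). Fibroblast markers had 3 of 3 tested probes called lower (Dcn at -1.34 and -1.79, Pdgfra at -0.58, the last kept only without DJ-1 siRNA replicate 2 when arrays were left out, with adjusted p up to 0.125). The fit was tested on simulated data with 200 probes changed by 1 log2 unit. It called 116 of them (58%), 0 in the wrong direction, and made 3 false calls. In the real data 30.1% of tested probes were called, and each called member changed by less than 1 log2 unit. The simulated figures therefore do not carry over to the calls given here. The alternatives are other background corrections and scalings, other filters, a trend of the prior variance, Student's t-test, a replicate block, each array left out and the mean of a gene's probes.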

Additional observations from a re-analysis of the deposited data

How the results depend on the processing

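The fall of Park7 and that of DNAJC3 were called under all 15 alternatives. Changed probes numbered 5387, and 3519 with no filter on dim probes, where 45281 probes were tested. With each array left out in turn the number ran from 2564 to 5290, where fewer arrays were compared. The count of ER folding probes called higher, 3 as reported, was 5 without background correction (quantile normalization), 5 with background correction and a 75th percentile shift, 5 with that shift and no background correction, and 5 with a trend of the prior variance, which also called 2 lower. It was 0 with no filter (limma, 5 at an unadjusted p under 0.05), and it ran from 0 to 2 with each array left out, being 0 without scramble siRNA replicate 2, DJ-1 siRNA replicate 1 or DJ-1 siRNA replicate 3 (3 at an unadjusted p under 0.05 in each). The count called lower was 1 with each array left out. The cause of the gain with other scalings was not tested. With the replicate block 1 probe was called higher and 1 lower, and 4350 probes changed. Deviations of same-numbered arrays correlated at 0.0537, 0.0474 and 0.0199, each the best match of its array but under 0.1. Median raw signals also lay closest between same numbers. They were 162.2, 167.4 and 153.5 for scramble siRNA replicates 1 to 3 and 161, 166.9 and 152.3 for DJ-1 siRNA. The labels do not say what a number shares, and the fit as reported does not pair the samples. With the replicate block HSP90B1 and HERPUD1 were not called. No called member changed sign. Dim probes, near background, carry the least certain sizes.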
